A study of Mus musculus with 20 samples.

Results

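A group of 10 genes of inflammatory signalling was followed through serum-treated forebrain slices of mouse pups: the cytokine genes Il6, Il1a, Il1b, Tnf and Lif, the NF-kB feedback inhibitors Nfkbia and Tnfaip3, the prostaglandin synthase Ptgs2, and the adhesion molecules Vcam1 and Icam1. They were taken by name, and all 10 were found among the 19722 genes of a 4 h table and the 51912 genes of a 24 h table. Slices were cut at postnatal day 4 and held in medium with 5% horse serum for 4 h or 24 h, and SMART-Seq V4 libraries were made from their total RNA, giving 20 libraries. At 4 h, 3 libraries were from pups labelled knockout (KO, TSG-6-/-) and 3 from wild-type pups (WT, TSG-6+/+). At 24 h there were 4 KO females, 4 KO males, 3 heterozygous (Het) females and 3 Het males. TSG-6, encoded by Tnfaip6, is a secreted hyaluronan-binding protein that is itself induced by Tnf and Il1. Strain and the deleted part of the gene are not stated in the labels, which also do not say that each library was a separate animal. P-values therefore measure only the spread between these libraries, which may be technical. A 24 h protocol text speaks of WT slices where titles and genotype fields say heterozygous, and the titles were followed. Slices without serum were not analysed here, so no value below is a response to serum.

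Libraries held 11411532 to 15030171 reads at 4 h and 8482933 to 18051300 at 24 h. Some went against their labels. Tnfaip6 transcripts were not lost in KO libraries, with 40.6, 73.2 and 83.3 normalised reads in KO slices at 4 h, against 67.2, 92.6 and 84.4 in WT slices, and 54 to 108 counts in KO libraries at 24 h, against 45 to 69 in Het libraries. KO therefore stands for the label throughout. KO female 2 had 0 Xist counts and 826 counts of the Y-linked gene Ddx3y, like most male libraries. Het male 1 had 107 Xist counts beside 656 of Ddx3y, against 0 to 5 Xist counts in each other male library. At 4 h only KO 1 and WT 1 held Xist reads in number (2355 and 5655). The choroid plexus gene Ttr had 19661, 48186 and 4922 counts in KO female 1, KO female 3 and KO male 3, against at most 8 in each other 24 h library.

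NF-kB is a family of transcription factors held in the cytoplasm by inhibitor proteins, which are degraded when receptors for Tnf, Il1 or microbial products are engaged. The freed dimers enter the nucleus and switch on cytokine, chemokine and adhesion genes together with Nfkbia and Tnfaip3, which shut the signal off again. In brain tissue, microglia are the main source of Tnf and Il1, astrocytes and endothelial cells respond to them, and Vcam1 and Icam1 on vessel walls hold passing leukocytes.

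RefSeq promoters of the GRCm38.p6 build, reaching from 250 bases before each gene's start to 50 bases after it, were matched for 9 of the 10 genes. Vcam1 was the gene with no entry. The NF-kB consensus was found in 4 of them, on either strand, whereas 8.46% of all 32851 promoters of 300 bases hold it. These 4 are printed because the factor that names the group has its motif there. Each run is the 250 bases before the RefSeq start, 5′ to 3′ on the strand of the gene, with consensus matches in capitals. Il6 is at chr5:30012864-30013113 on the plus strand, Lif at chr11:4257318-4257567 on the plus strand, Nfkbia at chr12:55492648-55492897 on the minus strand and Tnfaip3 at chr10:19015411-19015660 on the minus strand. For Il6 and Nfkbia the RefSeq start is that of the GENCODE gene whose coordinates are given further on. It lies 11 bases inside that gene for Lif and 247 bases inside it for Tnfaip3, so nearly all of the Tnfaip3 run is within the GENCODE gene.
Il6: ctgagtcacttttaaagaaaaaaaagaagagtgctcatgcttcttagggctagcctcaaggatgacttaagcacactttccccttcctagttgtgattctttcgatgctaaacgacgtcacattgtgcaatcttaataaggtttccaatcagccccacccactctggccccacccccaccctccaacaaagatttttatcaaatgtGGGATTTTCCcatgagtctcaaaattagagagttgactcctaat
Lif: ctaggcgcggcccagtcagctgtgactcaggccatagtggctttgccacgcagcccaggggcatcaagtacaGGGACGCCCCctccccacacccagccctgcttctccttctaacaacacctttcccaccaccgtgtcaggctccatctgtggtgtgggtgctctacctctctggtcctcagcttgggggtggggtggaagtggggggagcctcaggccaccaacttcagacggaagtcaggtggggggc
Nfkbia: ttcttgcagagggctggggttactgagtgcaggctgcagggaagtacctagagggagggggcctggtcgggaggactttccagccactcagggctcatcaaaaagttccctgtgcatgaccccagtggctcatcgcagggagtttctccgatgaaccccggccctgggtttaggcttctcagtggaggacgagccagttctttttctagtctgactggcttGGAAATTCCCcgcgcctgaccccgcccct
Tnfaip3: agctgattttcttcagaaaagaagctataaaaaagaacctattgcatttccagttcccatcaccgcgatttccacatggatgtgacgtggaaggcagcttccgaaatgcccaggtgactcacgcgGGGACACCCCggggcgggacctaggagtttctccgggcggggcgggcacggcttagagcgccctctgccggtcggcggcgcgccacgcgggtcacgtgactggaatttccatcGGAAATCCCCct
The match ended 35 bases before the RefSeq start in Il6 and 169 bases before it in Lif, and Nfkbia held its match on the opposite strand, ending 20 bases before the start. Tnfaip3 held 2 matches, of which the nearer ended 3 bases before its RefSeq start, and both lie inside the GENCODE gene. Searched on both strands, the AP-1 motif TGANTCA, which does not overlap these matches, was found in Il6, Il1a, Lif and Tnfaip3 (7.81% of all promoters), and TATAAA in Il1a, Il1b, Tnf, Nfkbia, Tnfaip3 and Icam1 (13.6% of all). A match in these letters is no proof of binding, and promoters without one were not searched further.

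At 4 h none of the 10 genes passed the test between KO and WT slices. The values deposited for 4 h are read counts divided by 1 size factor per library (normalised reads), and limma was run on log2(value + 1), which understates changes of low genes. Over 15181 genes it called 2 higher and 5 lower at an adjusted p under 0.05, or 0.0461% of genes. At an unadjusted p under 0.05 it held 2110 genes, of which Il6 and Vcam1 were members, and DESeq2 on the recovered reads called 161 genes, Vcam1 among them. The fold change was below 0 for 9 of the 10 members (49.4% of all genes), with a median of -0.27 on the log2 scale against 0.0024 for all genes. Leaving out KO 1 and WT 1, the libraries with Xist reads, left 7 of 10 below 0 (48.5% of all genes) and a median of -0.10.

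**Figure D1:**
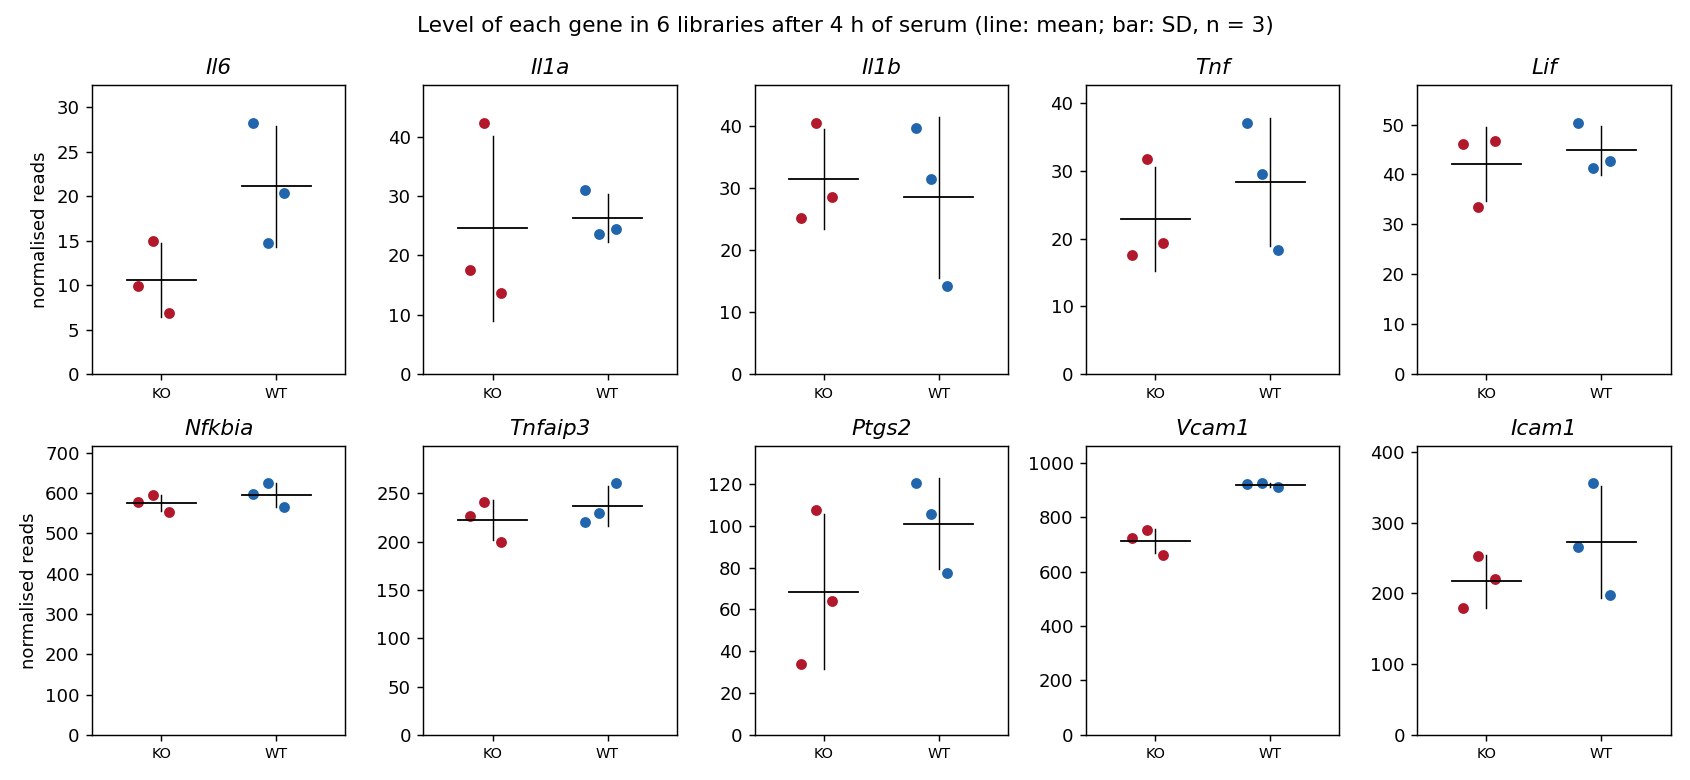
Normalised reads of the 10 genes in the 3 KO and 3 WT slices after 4 h in serum, each on its own linear axis, with a point per library, a line at the group mean and a bar of 1 SD (n = 3). Vcam1 is the gene whose KO points, 663 to 752, all lie below its WT points, 911 to 924.

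Among the cytokines, Il6 rested on the fewest reads. Il6, which signals fever, acute-phase and glial responses, is encoded at chr5:30013114-30019981 (GRCm38, plus strand). It had 9.87, 15.0 and 6.84 normalised reads in KO slices 1 to 3, against 28.3, 14.8 and 20.3 in WT slices 1 to 3. KO 1 and KO 3 were below every WT library, and KO 2 lay just above the lowest WT library. The mean was 10.6 ± 4.12 in KO and 21.1 ± 6.79 in WT (SD, n = 3 each), a log2 fold change of -0.95 ± 0.39 (SE) with an adjusted p of 0.302 by limma. Only 6 to 32 reads stood behind each of these values. Since these are bulk slices, fewer cells of a type and less RNA per cell cannot be told apart, here or below.

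Il1a and Il1b, the neighbouring genes of both interleukin-1 agonists (chr2:129299610-129309972 and chr2:129364570-129371139, minus strand), had no common direction. Il1a had 17.6, 42.3 and 13.7 normalised reads in KO slices, against 30.9, 23.6 and 24.4 in WT slices. Il1b had 25.2, 40.6 and 28.5 in KO slices, against 39.8, 31.5 and 14.2 in WT slices. For each, KO 2 was the highest of the 6 libraries and the groups overlapped. The log2 fold change was -0.25 ± 0.38 for Il1a (limma adjusted p = 0.806) and 0.22 ± 0.36 for Il1b (limma adjusted p = 0.821), and leaving out WT 3 turned that of Il1b to -0.20.

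Tnf, the cytokine that gives the NF-kB pathway its best-known trigger (chr17:35199381-35202007, minus strand), had 17.6, 31.8 and 19.4 normalised reads in KO slices, against 37.1, 29.6 and 18.3 in WT slices. Lif, a cytokine of the Il6 family that drives astrocyte formation (chr11:4257557-4272514, plus strand), had 46.1, 33.5 and 46.8 in KO slices, against 50.4, 41.4 and 42.7 in WT slices. Both genes overlapped between the groups. The log2 fold changes were -0.29 ± 0.34 for Tnf and -0.10 ± 0.23 for Lif (SE, limma adjusted p = 0.743 and 0.889).

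The feedback inhibitors varied little between libraries at 4 h. Nfkbia encodes the inhibitor that traps NF-kB in the cytoplasm and is resynthesised within the response (chr12:55489410-55492647, minus strand). It had 578, 595 and 553 normalised reads in KO slices, against 598, 624 and 565 in WT slices. Tnfaip3, a ubiquitin-editing enzyme that dampens Tnf and Il1 signalling (chr10:19000910-19015657, minus strand), had 226, 241 and 199.6 in KO slices, against 220.1, 229.6 and 260.2 in WT slices. Each gene overlapped between the groups. With log2 fold changes of -0.05 ± 0.08 and -0.09 ± 0.12 (limma adjusted p = 0.828 and 0.776), their standard errors were the smallest of the members apart from that of Vcam1.

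Ptgs2, the inducible cyclooxygenase that makes the precursor of prostaglandin E (chr1:150100031-150108227, plus strand), had 34.0, 108 and 63.9 normalised reads in KO slices, against 120.2, 105 and 77.2 in WT slices. KO 1 and KO 3 lay below all WT libraries, and KO 2 lay among them. The log2 fold change was -0.68 ± 0.32 (limma adjusted p = 0.363). It rested on KO 1, since it was -0.26 without that library and -0.12 without KO 1 and WT 1. Leaving out KO 2 gave -1.07 with a limma adjusted p of 0.0522.

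Vcam1, which binds the leukocyte integrin of alpha-4 and beta-1 chains and is carried by inflamed endothelium and by neural stem cells (chr3:116109949-116129688, minus strand), was lower in all 3 KO slices than in any WT slice. It had 723, 752 and 663 normalised reads in KO slices, against 924, 924 and 911 in WT slices. No other member separated the groups, and 8.88% of all genes had every KO value below every WT value, as 10.1% had every one above. Its log2 fold change was -0.37 ± 0.08 and its limma adjusted p was 0.0935, so it did not pass. DESeq2 on the recovered reads gave -0.37 ± 0.09 with an adjusted p of 0.0111, and limma without KO 2 gave -0.41 ± 0.08 with an adjusted p of 0.0247. In an exact permutation test, two-sided, its p was 0.1, the smallest that 20 arrangements allow.

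Icam1, the ligand of leukocyte beta-2 integrins (chr9:21015985-21028817, plus strand), had 179, 253 and 220.2 normalised reads in KO slices, against 265, 356 and 197 in WT slices. Here the groups overlapped, and the log2 fold change was -0.30 ± 0.19 (limma adjusted p = 0.498). Most lists of cell markers, those of vessel cells among them, leaned below 0 at 4 h, where 49.4% of all genes were below 0. All 15 endothelial and pericyte markers had fold changes below 0, with a median of -0.32, and their summed level was 7279 to 7448 normalised reads in KO slices, against 8377 to 9652 in WT slices. All 12 meningeal fibroblast markers and all 12 astrocyte markers tested were also below 0, with medians of -0.41 and -0.15. So were 8 of 9 oligodendrocyte lineage, 11 of 14 microglia, 4 of 6 border macrophage and 4 of 6 choroid plexus markers tested. In contrast, 9 of 12 neuron markers were above 0, with a median of 0.10. None of these markers passed the test, and their part in the Vcam1 and Icam1 values was not tested.

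At 24 h the members were set apart by 1 library, KO male 1, in which every one of the 10 had its highest value of all 14 libraries. Over the 16013 genes tested, 7.86% were highest in that library. The 24 h values are raw counts, given here scaled to library size (CPM), and edgeR's quasi-likelihood test was run with 1 mean for each genotype and sex. It called 0 of 16013 genes (0%) between KO and Het with sexes averaged, 0 (0%) in females, 0 (0%) in males and 0 (0%) for the difference between sexes. At an unadjusted p under 0.05 these comparisons held 1060, 657, 1100 and 618 genes, and DESeq2 called 5, 1, 1 and 1. With no filter on low counts edgeR called 263, 180, 220 and 165 genes, and 7 members both with sexes averaged and in males. In that fit the spread of every gene was drawn fully to the trend (prior degrees of freedom Inf, against 6.471 with the filter). The members called there were Il6, Il1a, Il1b, Lif, Nfkbia, Ptgs2 and Icam1.

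**Figure D2:**
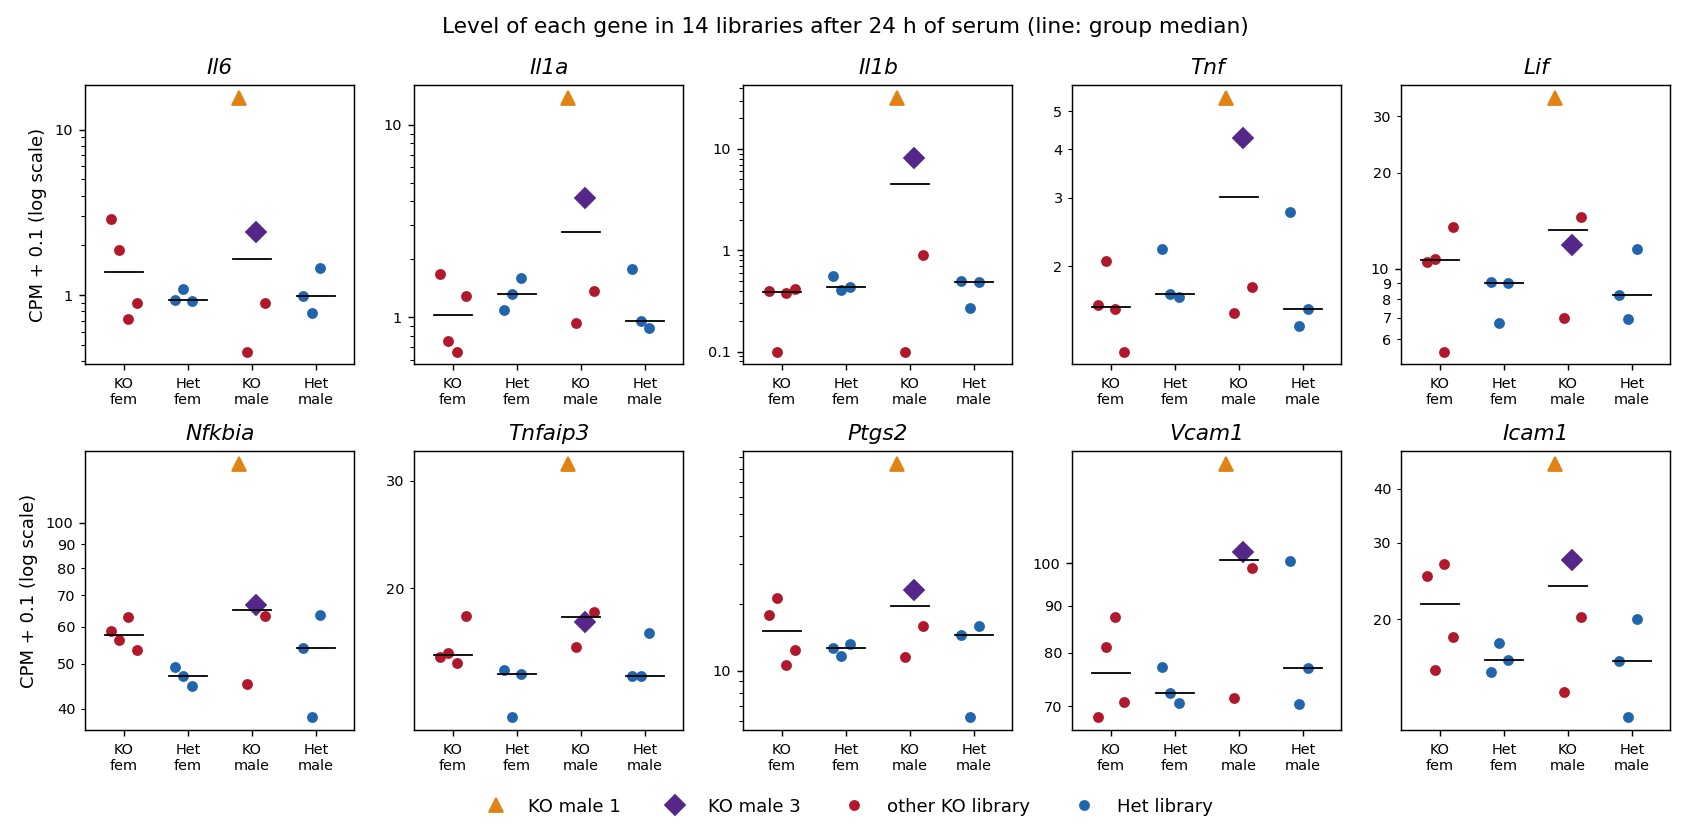
CPM + 0.1 on a log axis for the 10 genes in each 24 h library, with KO left of Het in each sex and a line at the group median (4 KO and 3 Het libraries a sex). KO male 1 (orange triangle) is the top point in every panel, and KO male 3 (purple diamond) is the second highest in 7 of them.

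Il1b showed the widest range. It had 0.299, 0, 0.281 and 0.317 CPM in KO females 1 to 4, against 0.453, 0.305 and 0.331 CPM in Het females 1 to 3. In males it had 32.0, 0, 8.07 and 0.795 CPM in KO males 1 to 4, against 0.394, 0.171 and 0.389 CPM in Het males 1 to 3. KO male 1 and KO male 3 held 289 and 87 counts, while the other 12 libraries held 0 to 10. Their levels were 89.0 and 22.4 times the median of the 6 Het libraries. KO female 2 and KO male 2 had no count, where the limit of 3 counts stands at 0.280 and 0.356 CPM. Il1b missed the filter on low counts with all libraries, so the filtered edgeR fit gives it no value, and exact permutation tests of its log2 CPM, two-sided, gave p = 0.257 in females, 0.286 in males and 0.356 with sexes averaged.

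Il6 had 2.77, 1.77, 0.618 and 0.793 CPM in KO females, against 0.831, 0.990 and 0.827 CPM in Het females. It had 15.5, 0.356, 2.32 and 0.795 CPM in KO males, against 0.886, 0.684 and 1.36 CPM in Het males. KO male 1 was far above the rest, at 18.1 times the Het median, while KO male 2 was the lowest of the 14 libraries. Il1a had 1.57, 0.654, 0.562 and 1.19 CPM in KO females, against 0.982, 1.22 and 1.49 CPM in Het females. It had 13.7, 0.831, 4.08 and 1.27 CPM in KO males, against 1.67, 0.855 and 0.778 CPM in Het males. In males KO 1 and KO 3 were above every Het library, and in females the groups overlapped.

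Tnf had 1.50, 1.96, 1.46 and 1.11 CPM in KO females, against 2.11, 1.60 and 1.57 CPM in Het females. It had 5.32, 1.42, 4.17 and 1.67 CPM in KO males, against 2.66, 1.31 and 1.46 CPM in Het males. Again KO male 1 and KO male 3 stood above every Het male, whereas 3 of 4 KO females were below every Het female. Lif had 10.4, 10.6, 5.39 and 13.4 CPM in KO females, against 8.99, 6.63 and 8.93 CPM in Het females. It had 34.3, 6.88, 11.8 and 14.4 CPM in KO males, against 8.17, 6.84 and 11.4 CPM in Het males. In each sex 3 of the 4 KO libraries exceeded every Het library.

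For the inhibitors the female groups did not overlap. Nfkbia had 58.6, 56.1, 62.7 and 53.3 CPM in KO females, against 49.2, 47.0 and 44.6 CPM in Het females. Tnfaip3 had 15.3, 15.6, 15.0 and 17.9 CPM in KO females, against 14.6, 12.2 and 14.4 CPM in Het females. Among all genes, 2.3% had every KO female above every Het female. Exact permutation tests, two-sided, gave p = 0.0286 for each gene, the smallest of 35 arrangements and unadjusted for the 10 members. These tests count KO female 2, with its Y-linked counts, as a female, and were not repeated without it. Between 3 and 3 libraries, as at 4 h, the p of such a test cannot fall below 0.1. The edgeR log2 fold changes in females were 0.30 ± 0.25 for Nfkbia and 0.22 ± 0.19 for Tnfaip3, both with an adjusted p of 1.00, and 0.31 and 0.23 without KO female 2. In males Nfkbia had 134, 45.1, 66.7 and 63.2 CPM in KO libraries, against 53.9, 38.3 and 63.5 CPM in Het libraries. Tnfaip3 had 31.9, 15.9, 17.5 and 18.2 CPM in KO males, against 14.3, 14.3 and 16.8 CPM in Het males. The male groups overlapped for both genes, and no member had every KO male above every Het male (3.4% of all genes did).

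Ptgs2 had 17.7, 21.0, 10.5 and 12.3 CPM in KO females, against 12.5, 11.6 and 13.1 CPM in Het females. It had 84.1, 11.4, 22.9 and 15.8 CPM in KO males, against 14.4, 6.10 and 15.8 CPM in Het males. KO male 1 was at 6.57 times the Het median and KO male 3 at 1.79 times. The groups overlapped in both sexes.

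Vcam1 had 68.0, 81.2, 87.3 and 70.7 CPM in KO females, against 77.2, 72.3 and 70.5 CPM in Het females. It had 128, 71.3, 103 and 98.8 CPM in KO males, against 100.5, 70.4 and 76.9 CPM in Het males. Of the members it lay closest to the Het level in KO male 1, at 1.72 times the Het median, and its groups overlapped. Icam1 had 25.1, 15.2, 26.7 and 18.1 CPM in KO females, against 15.0, 17.5 and 16.0 CPM in Het females. It had 45.6, 13.5, 27.3 and 20.2 CPM in KO males, against 16.0, 11.8 and 19.9 CPM in Het males. For Icam1, 3 of the 4 KO libraries of each sex exceeded every Het library of that sex.

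With sexes averaged, edgeR gave log2 fold changes above 0 for all 9 members it tested, as for 50% of all genes, with a median of 0.58 against 0 for all genes. They ran from 0.18 ± 0.11 for Vcam1 and 0.29 ± 0.29 for Tnf to 0.90 ± 0.38 for Ptgs2, 0.93 ± 0.54 for Il1a and 1.50 ± 0.67 for Il6 (SE; 8 KO and 6 Het libraries; edgeR adjusted p between 0.738 and 0.890). Those of Nfkbia, Tnfaip3, Icam1 and Lif were 0.44 ± 0.18, 0.34 ± 0.13, 0.58 ± 0.21 and 0.61 ± 0.29. In males all 9 were above 0, as for 49.7% of all genes, with a median of 0.82. The highest were Il6 at 2.29 ± 0.92, Il1a at 2.18 ± 0.73 and Ptgs2 at 1.50 ± 0.54 (edgeR adjusted p = 0.718 for each), and the lowest was Vcam1 at 0.29 ± 0.15. In females 7 of 9 were above 0, with a median of 0.27, and Il1a (-0.31 ± 0.79) and Tnf (-0.24 ± 0.42) were below it.

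**Figure D3:**
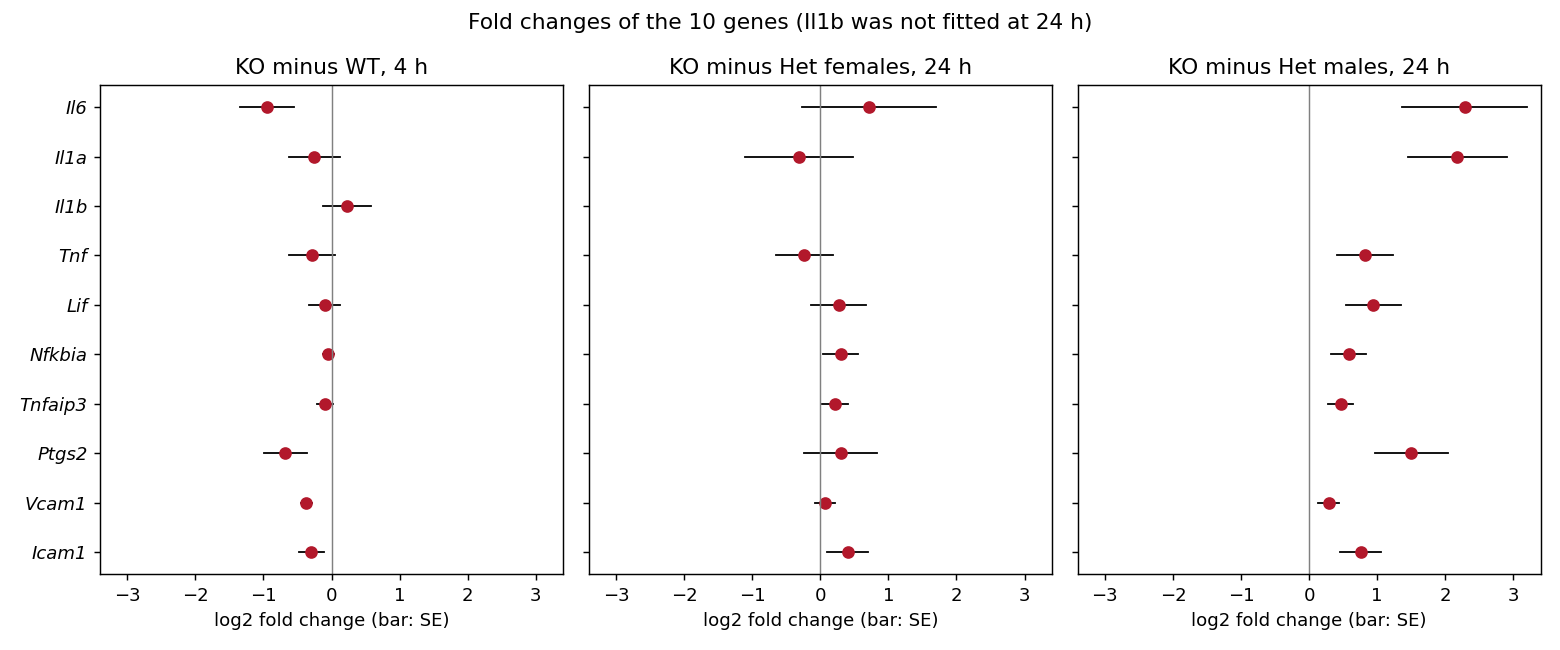
Log2 fold change of each gene with its SE, for KO against WT at 4 h (limma, 3 libraries each) and KO against Het at 24 h in females and in males (edgeR, 4 KO and 3 Het libraries a sex). At 4 h all but Il1b lie below 0, in males all 9 tested lie above 0, led by Il6 at 2.29, and Il1b was not fitted at 24 h.

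The difference between sexes was tested as an interaction and passed for no member. Il1a had the widest one, with its KO-to-Het difference 2.49 ± 1.08 higher in males than in females on the log2 scale (edgeR adjusted p = 0.977). Il6 had 1.57 ± 1.37 and Ptgs2 1.20 ± 0.75, and all 9 were above 0. Without KO male 1 only 5 of 9 remained above 0, with a median of 0.08, and Il6, Nfkbia, Tnfaip3 and Icam1 changed sign, Il6 to -0.40. Without KO female 2, the library with Y-linked counts, Il1b passed the filter, through KO males alone. It held 289, 87 and 10 counts in KO males 1, 3 and 4, and at most 6 in any other library. Its own sign was thus set by how it entered. All 10 were then above 0 for this difference (48.9% of all genes), with a median of 0.95. That median includes Il1b, so it is not of the same genes as the 0.68 of the 9 with all libraries. In females 7 of 10 were then above 0 (50.9% of all genes) with a median of 0.17, and no member was called in either.

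Most of the male fold change rested on 2 libraries. Without KO male 1, all 9 stayed above 0 in males (48.4% of all genes), but the median was 0.36 and Il6 stood at 0.32, Il1a at 0.95, Ptgs2 at 0.50 and Nfkbia at 0.18. Without KO male 1 and KO male 3, a pair left out after their values were seen, 6 of 9 were above 0 (49.4% of all genes) with a median of 0.08. Il6 was then at -0.64 and Tnf at -0.18, while Lif kept 0.31 and Ptgs2 0.21. With sexes averaged the same omission left 7 of 9 above 0 with a median of 0.19, and Lif at 0.29, Icam1 at 0.26, Ptgs2 at 0.26, Tnfaip3 at 0.20 and Nfkbia at 0.19. No member was called in any of these fits. KO male 3 is also a library with Ttr counts, and without the 3 Ttr libraries the averaged median was 0.44.

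**Figure D4:**
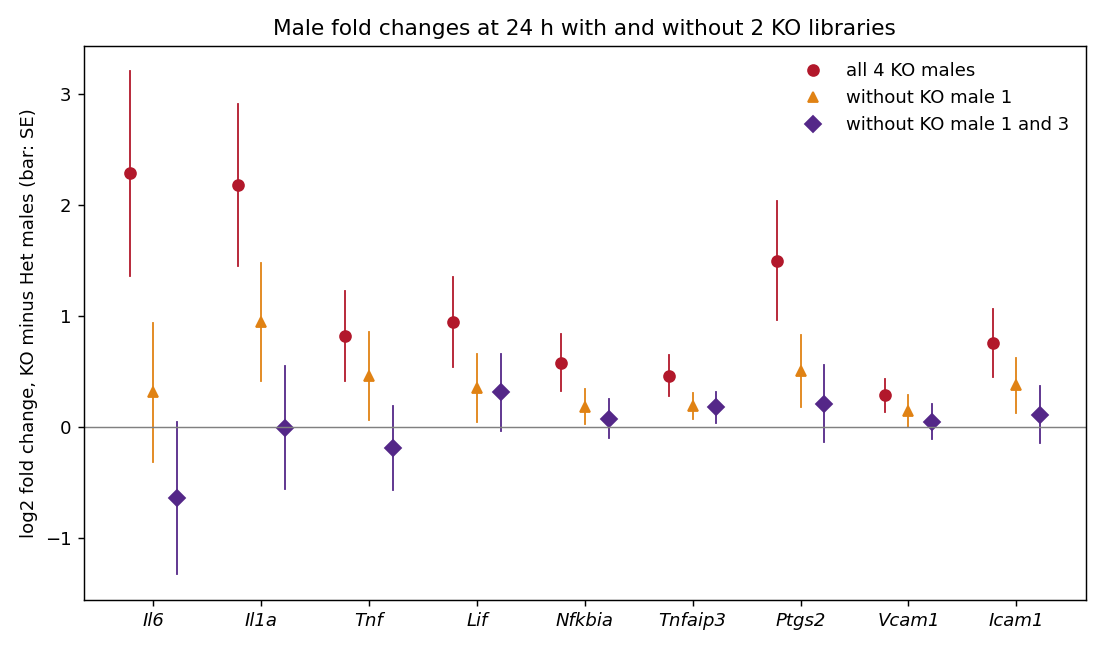
Log2 fold change of KO against Het males at 24 h for the 9 genes tested, with all 4 KO males, without KO male 1, and without KO male 1 and KO male 3. Il6 stands at 2.29 with all libraries, at 0.32 without KO male 1 and at -0.64 without both, while Vcam1 and Tnfaip3 move least.

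In KO male 1 all 5 cytokines stood further above the Het level than the inhibitors and adhesion genes did, and in KO male 3 all cytokines but Lif did. In the first of them the ratio to the Het median was 12.5 for Il1a, 4.01 for Lif, 3.36 for Tnf, 2.85 for Icam1, 2.78 for Nfkbia and 2.23 for Tnfaip3. In KO male 3 it was 3.71 for Il1a, 2.70 for Il6, 2.63 for Tnf, 1.70 for Icam1, 1.39 for Nfkbia and 1.22 for Tnfaip3. KO male 2, of the same group, was below the Het median for 9 of the 10 members, all but Tnfaip3. Summed microglia markers were 446 and 423 CPM in KO male 1 and KO male 3, against 460.5 to 636 CPM in the other 12 libraries. The 10 neutrophil and monocyte markers summed to 3.21 and 2.50 CPM in these libraries, against 0.168 to 2.33 CPM in the other 12. Of these markers KO male 1 held 6 counts of S100a8, 5 of Camp and 4 of S100a9, against at most 2 of each in any other 24 h library. It also held 2 of Ngp, 1 of Ccr2 and 0 of Ly6g. In counts all 10 summed to 29 and 27 in KO male 1 and KO male 3, against 3 to 28 in the other 12 libraries. The 1 marker kept by the filter on low counts was highest in neither. The part of these markers in the member values was not tested. Mitochondrial reads were 0.754% to 1.24% over all 20 libraries, and KO male 1 had 9084118 counts, the second lowest total.

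Levels per transcript length, in length-scaled units that sum to the same total in every library (TPM), were ranked by group mean. Nfkbia was first and Vcam1 second in every group at both times. Nfkbia averaged 106 ± 3.91 TPM in KO and 110 ± 4.03 in WT at 4 h (n = 3 each), and 123 ± 22.2 in Het libraries at 24 h (n = 6), where KO libraries had a median of 147 and ran up to 330 (n = 8). Icam1 came next except in KO males, where its mean stood behind that of Ptgs2. This rested on KO male 1, with 73.0 TPM of Ptgs2 and 41.5 of Icam1. In each other KO male Icam1 was above Ptgs2. Il6 and Il1a were among the last 3 in every group, while Il1b ran between place 5 and place 10 and Lif between place 5 and place 9. At 4 h Il6 averaged 1.29 ± 0.506 TPM in KO and 2.60 ± 0.848 in WT, Lif 2.87 ± 0.504 and 3.07 ± 0.346, Il1a 3.69 ± 2.35 and 3.98 ± 0.619, Tnf 4.15 ± 1.41 and 5.14 ± 1.70, and Il1b 4.89 ± 1.27 and 4.45 ± 2.02. Within each group at 4 h, Il1a, Il1b and Tnf did not differ beyond their spread.

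The 2 times come from tables normalised separately and from other control genotypes, so their levels are set side by side with no test. Il1b had means of 4.89 ± 1.27 TPM in KO and 4.45 ± 2.02 in WT slices at 4 h. At 24 h it had a median of 0.638 in KO and a mean of 0.717 ± 0.209 in Het libraries. The 24 h KO libraries ran from 0 to 66.7 with a mean of 10.9, so the order of the times in KO depends on the statistic. Lif had means of 2.87 ± 0.504 TPM in KO and 3.07 ± 0.346 in WT slices at 4 h. At 24 h it had a median of 10.5 in KO (4.85 to 31.3) and a mean of 7.85 ± 1.69 in Het libraries. Ptgs2 had means of 4.44 ± 2.41 TPM in KO and 6.56 ± 1.39 in WT slices at 4 h. At 24 h it had a median of 14.6 in KO (8.97 to 73.0) and a mean of 10.8 ± 3.00 in Het libraries.

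Across the 14 libraries of 24 h the members varied together, largely through KO male 1 and KO male 3. The median Pearson correlation of log2 CPM over the 36 pairs of 9 members was 0.79, and 29 pairs were over 0.7. Without both libraries it was 0.24, and 2 pairs were over 0.7, Nfkbia with Icam1 at 0.81 and Lif with Tnfaip3 at 0.73. These are descriptions over libraries that share preparation, genotype and sex.

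The gene nearest to each member in this measure, of 13984 compared over 14 libraries, differed for each. Ptgs2 lay nearest to Cxcl2, a neutrophil chemokine, with r = 0.97, rho = 0.93 and r = 0.96 without KO male 1 and KO male 3. Nfkbia lay nearest to Nfkbiz, a nuclear member of its own inhibitor family, with r = 0.96, and 0.89 without them. Lif lay nearest to Bdkrb2, a bradykinin receptor, with r = 0.95 and 0.87, and Vcam1 to the zinc transporter gene Slc39a14, with r = 0.95 and 0.90. Il1a lay nearest to Saa3, an acute-phase gene, with r = 0.95, but only 0.54 without them. Il6 lay nearest to Ptges (0.93, and 0.73 without them), Tnf to Ccl4 (0.92 and 0.71), Tnfaip3 to Bmp1 (0.92 and 0.77) and Icam1 to Nfkbia (0.92 and 0.81). In KO male 1 these neighbours reached 123 CPM for Saa3, 74.2 for Ptges, 49.7 for Nfkbiz, 39.5 for Cxcl2 and 13.6 for Ccl4.

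The other genes of the pathway were taken from lists by role, which were chosen with earlier results of these data known. None of these genes passed the test in any comparison. At 4 h, 13 of 21 other NF-kB targets tested were below 0 (49.4% of all genes), with a median of -0.23. The smallest p belonged to the stress gene Gadd45b at -0.60 ± 0.12 and the early-response gene Ier3 at -0.51 ± 0.14 (limma adjusted p = 0.0909 and 0.168). Medians were 0.005 for the 5 NF-kB subunits, 0.045 for the 15 inhibitors and brakes and 0.035 for the 22 activating kinases and adaptors. Among the brakes, Zfp36, which destabilises cytokine mRNAs such as that of Tnf, was at -0.55 ± 0.11 (limma adjusted p = 0.0909), and the subunit gene Nfkb2 was at -0.39 ± 0.13 (limma adjusted p = 0.218). Of the other cytokines 6 of 7 tested were below 0, with a median of -0.12, and of the receptors 10 of 14, with a median of -0.05. Of the prostaglandin genes 8 of 12 were below 0, Ptges, the terminal synthase downstream of Ptgs2, at -0.44 ± 0.13 (limma adjusted p = 0.187). Of the integrins that bind Vcam1 and Icam1, 5 of 7 were above 0, with a median of 0.07. Their summed level went the other way, with 2253 to 2439 normalised reads in KO slices, against 2599 to 2781 in WT slices.

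At 24 h with sexes averaged, all 23 other NF-kB targets tested were above 0 (50% of all genes), with a median of 0.44. In males 22 of 23 were above 0 (49.7% of all genes), with a median of 0.61. Gadd45b was at 0.67 ± 0.18, the complement gene C3 at 1.17 ± 0.38 and the subunit gene Relb, which is also on the target list, at 0.48 ± 0.17 (edgeR adjusted p = 0.738 for each). Of the other cytokines 6 of 8 tested were above 0, with a median of 0.35. The 5 subunits were all above 0 with a median of 0.27, 13 of 15 inhibitors were above 0 with a median of 0.14, and 11 of 14 receptors with one of 0.11, while the kinases and adaptors were divided, 10 of 22 above 0 with a median of -0.01. The same KO male led this pattern. Of these lists, 20 of the 23 targets and 4 of 5 subunits were highest in KO male 1. So were 7 of 15 inhibitors, 7 of 14 receptors, 5 of 8 other cytokines and 2 of 22 kinases and adaptors. Of all genes tested, 7.86% were highest in KO male 1. Among cell markers, 3 of 7 of border macrophages and 2 of 13 of meningeal fibroblasts were highest there, and 0 of 15 of microglia, 0 of 15 of endothelial cells and pericytes, 0 of 12 of astrocytes and 0 of 12 of neurons. The summed level of the other targets was 1364 CPM in KO male 1 and 659 CPM in KO male 3, against 374 to 511 CPM in the other 12 libraries. Without KO male 1 and KO male 3, 16 of 22 targets tested stayed above 0 with a median of 0.15.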

How the data were processed

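RNA-seq was analysed in 20 libraries. For 24 h the authors deposited raw counts per gene. For 4 h they deposited a signal, read counts divided by 1 size factor per library, and 100% of the reads recovered from it were whole within 0.05. GRCm38 (mm10), TopHat2, HTSeq and DESeq2 1.38.3 appear in the submitters' processing notes, with no step assigned to any. On annotation release and strandedness nothing is given in the sources used here. Since strand is not stated, reads of Il1a, Il1b, Vcam1 and Icam1 and of the antisense genes overlapping them cannot be told apart. These antisense genes held at most 9 reads in a library. That of Il1b held at most 1 at 24 h and had no value at 4 h. Identifiers were matched to GENCODE symbols for 19673 and 51633 genes, and coordinates are GRCm38, 1-based. The replicate pairs of a group differed by 3.17 to 12.7 chi-square units per degree of freedom, so none was 1 library deposited again.

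The members and gene lists were chosen with earlier results of these data known. At 4 h, genes with a mean of at least 10 normalised reads were tested with limma 3.58.1 (trend) on log2(value + 1). At 24 h, edgeR 4.0.16 used filterByExpr, TMM and its quasi-likelihood test with 1 mean for each genotype and sex. R was 4.3.3 and DESeq2 1.42.0 was the alternative. P-values were adjusted by Benjamini-Hochberg over all genes tested, with a threshold of 0.05. CPM used TMM library sizes, and TPM used exon lengths. Permutation tests were exact. On simulated data with the 4 h libraries, limma recovered 88% of genes raised by a factor of 2 among 15172. With the 24 h libraries, edgeR recovered 96% of such genes in females and 94% in males among 15938. Changes were planted only in genes with many reads, and every gene was given the same spread. These shares therefore do not hold for cytokine genes with few reads, or for groups as uneven as the KO males. Genes outside the members were named as the genes with the smallest p in a list at 4 h or with sexes averaged at 24 h, and neighbours by the highest correlation.

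At 4 h, the deviations of same-numbered KO and WT libraries had weak correlations (0.264, 0.140 and 0.175). The first is that of KO 1 and WT 1, the libraries with Xist reads. Differently numbered libraries were not compared and the labels state no pairing, so whether the numbers pair the samples is not known. With the number as a replicate block limma called 38 genes and no member.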

Additional observations from a re-analysis of the deposited data

Results flagged for a closer look

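Within the 4 KO males at 24 h, KO male 1 lay apart from the other libraries of its group for 3 members, by its gap to the nearest library divided by the range of the group. It had 15.5 CPM of Il6 (gap over range 0.871), 31.9 CPM of Tnfaip3 (0.856) and 84.1 CPM of Ptgs2 (0.842). Within the 4 KO females, KO female 2 lay apart for Il1b, with 0 CPM (0.885), a difference of a few reads. For independent values with a normal spread, chance alone sets apart about 1 in 20 groups of this size. CPM of few reads are not such values, and the 3 members flagged in KO males share 1 library. Every member was looked at in both KO groups at 24 h, of 4 libraries each, and in no other group. How many of these flags chance would give is therefore not known. No cause of these values was tested.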

How the results depend on the processing

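At 4 h the 7 genes called became 161 with DESeq2, 38 with the replicate block, 28 with a robust spread, 1 without WT 1 and KO 1, and 1 to 211 when single libraries were left out. Members called at 4 h were 1 with DESeq2 (Vcam1) and 0 to 1 when single libraries were left out, and the block changed no member's call. Over single libraries left out, the log2 fold change of Il1a ran from -0.72 to 0.063 (without KO 3), of Il1b from -0.20 (without WT 3) to 0.52 and of Lif from -0.18 to 0.055 (without KO 2). Without WT 1 and KO 1, a pair left out after the data were seen, Il1a was at 0.012 and Tnf at 0.090.

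At 24 h, libraries with the same number in their titles did not deviate together (correlations from -0.117 to 0.0867). The description labels number some of these libraries otherwise, and differently numbered libraries were not compared. Whether any of them were paired is therefore not known. The block by title number gave 5 calls with sexes averaged, 5 in females and 4 for the difference between sexes, in place of 0. DESeq2 gave 5 with sexes averaged and 1 each in females, in males and for the difference between sexes. No filter on low counts gave 263, 180, 220 and 165, with 7 members called with sexes averaged, 7 in males and 3 for the difference between sexes. The genes fitted and the prior degrees of freedom changed together in that fit, and the cause of these calls was not tested. Leaving out single libraries gave 0 to 2 calls with sexes averaged, and no member. Vcam1 in females ran from -0.00096 (without KO female 3) to 0.12.

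For the difference between sexes, 4 members were below 0 without KO male 1, and over single libraries left out Il6 ran from -0.40 to 2.10, Nfkbia from -0.12 to 0.46, Tnfaip3 from -0.029 to 0.35 and Icam1 from -0.027 to 0.56. Without KO male 1 and KO male 3, Il6, Nfkbia, Tnfaip3, Ptgs2, Vcam1 and Icam1 were at -1.36, -0.22, -0.041, -0.090, -0.018 and -0.29. In males Il6, Il1a and Tnf were then at -0.64, -0.0033 and -0.18, and with sexes averaged Il1a and Tnf at -0.16 and -0.21. The cause was not tested. Cytokine counts of a few reads per library limit what can be seen for Il6, Il1a, Il1b and Tnf at both times.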
